A study of Mus musculus with 12 samples.

Results

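The p53 gene Trp53 and 9 of its known targets, Cdkn1a, Mdm2, Ccng1, Gadd45a, Gdf15, Bbc3, Bax, Phlda3 and Eda2r, were followed in mouse liver. They were selected by symbol among the 27304 genes of the count table, and all 10 were found there. RNA-seq of total RNA was done on 12 livers of mice that all lacked Apoe, the apolipoprotein E gene, and had all been on the diet labelled HFD for 12 weeks. The controls were Apoe-/- and the other mice were Apoe-/-AhR-/-, called Ahr-null here, without the aryl hydrocarbon receptor, a transcription factor activated by ligands. Each genotype had 3 males and 3 females, and neither their ages nor the design of the null alleles is given in the sources used here. The labels give 1 liver per sample, so samples were treated as different mice, and p-values cover only the spread among these samples. The genes were picked after Cdkn1a had stood out in the comparison of Ahr-null with control males. For these 10 genes, comparisons that hold male livers are therefore described without a test, and only the comparison of the female livers was tested.

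The protein p53 is a transcription factor that is kept at a low level by the ubiquitin ligase Mdm2 and is stabilised after DNA damage and other stress. It then switches on genes that hold the cell cycle, such as Cdkn1a, and genes that start cell death, such as Bbc3 and Bax. Mdm2 is itself a target, which closes a feedback loop, and Cdkn1a can also be switched on by other transcription factors, which makes it a readout of more than p53. In liver, Cdkn1a is known as a brake on hepatocyte division.

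The Cdkn1a gene (ENSMUSG00000023067, GRCm38 chromosome 17, 29090976 to 29100727, plus strand) has 2 RefSeq start sites in the promoter table. The bases in front of the upstream start are shown because they hold a p53 motif of the full kind, in capitals below. A half-site here is 10 bases long, with purines, a central C, 2 bases that are A or T, a central G, and pyrimidines. A full site is a pair of adjacent half-sites with at most 1 mismatch outside the central bases. The 250 bases before that start on the plus strand (chr17:29090729-29090978, GRCm38.p6) are
Cdkn1a upstream start: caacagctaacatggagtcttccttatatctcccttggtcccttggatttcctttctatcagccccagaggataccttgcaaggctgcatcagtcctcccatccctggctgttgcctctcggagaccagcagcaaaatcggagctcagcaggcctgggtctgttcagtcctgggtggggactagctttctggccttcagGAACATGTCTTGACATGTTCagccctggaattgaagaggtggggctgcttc

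The full site began 51 bases before the start, and a further half-site, in lower case above, began 73 bases before it. Windows of 250 bases before and 50 bases after a start were searched on both strands, and 18 of 32851 such RefSeq windows (0.0548%) held a full site. Single half-sites were in 8.36% of the windows. One stood in the windows of Trp53, Mdm2, Ccng1, Gadd45a and Bax, and none was found in those of Gdf15, Bbc3, Phlda3 and Eda2r or in the window of the downstream Cdkn1a start. The letters GCGTG, the core bound by the aryl hydrocarbon receptor with its partner, were in 32.4% of all windows. They stood once in the window of the downstream Cdkn1a start and not in that of the upstream start. The windows of Mdm2 (2 times), Ccng1 (1) and each Bbc3 start (4, 1 and 1) held them too, and those of the other genes did not. A match is a description of the letters and says nothing about binding in these livers. The half-sites of the 5 other genes are shown in capitals, each with 10 bases to either side, to compare them with the Cdkn1a site.
Trp53 (chr11:69580274-69580303, plus strand): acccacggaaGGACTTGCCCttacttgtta
Mdm2 (chr10:117710925-117710954, minus strand): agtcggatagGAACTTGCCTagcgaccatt
Ccng1 (chr11:40755452-40755481, minus strand): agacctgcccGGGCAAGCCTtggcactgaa
Gadd45a (chr6:67037428-67037457, minus strand): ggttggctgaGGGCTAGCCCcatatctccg
Bax (chr7:45467080-45467109, minus strand): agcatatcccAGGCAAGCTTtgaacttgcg

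The libraries held 9794253 to 18924880 counts. Markers of neurons and glia (23 genes) summed to 279 CPM in control male 1 and 506 CPM in Ahr-null female 1, against 26.7 to 92 CPM in the other 10 libraries. CPM, here and below, are TMM-normalised counts brought to the same library total. Ahr-null female 1 also had the lowest correlations with its replicates, 0.805 and 0.811 over log2 CPM, where other replicate pairs reached 0.938 to 0.979. The hepatocyte markers, 8 of 8 with counts in every library, summed to 18300 to 24100 CPM in controls and 23400 to 72000 CPM in Ahr-null livers, which overlapped. Counts of Ahr itself did not part the genotypes (12.4 to 25 CPM), while its target Cyp1a2 had 47 to 217 CPM in Ahr-null and 452 to 1170 CPM in control livers. In bulk RNA, fewer cells of a type and less RNA per cell cannot be told apart.

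Cdkn1a, whose protein p21 inhibits cyclin-dependent kinases, was high in the 3 Ahr-null males and low in the other 9 livers. Its levels were 9.76, 8.43 and 7.70 CPM in control males 1, 2 and 3, and 68.3, 35.6 and 59.7 CPM in the Ahr-null males. In control females they were 8.96, 14.6 and 8.73 CPM, and in Ahr-null females 8.26, 16.04 and 9.88 CPM. The lowest Ahr-null male was 3.65 times the highest control male, while the values of the other 3 groups overlapped. By mean the groups stood in the order control males (8.63 ± 1.04 CPM, SD, n = 3), control females (10.8 ± 3.33), Ahr-null females (11.4 ± 4.11) and Ahr-null males (54.5 ± 16.9). Neighbours among the first 3 differed by less than the SD of the higher group. The counts behind these levels were 109 to 121 in control males, 460 to 1732 in Ahr-null males, 105 to 134 in control females and 90 to 267 in Ahr-null females.

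The log2 fold change of Cdkn1a between Ahr-null and control males, by which it had been singled out, was 2.66 ± 0.34 (SE; 95% interval 1.92 to 3.41). This is a 6.33-fold difference with an interval of 3.78 to 10.6, and it ranked 41 among the 13641 genes that passed the filter on low counts. In females the log2 fold change was 0.09 ± 0.33 (95% interval -0.62 to 0.80), with an edgeR quasi-likelihood Benjamini-Hochberg adjusted p = 0.928. The upper bound of that interval lay below the lower bound in males. This is no test of a difference between the sexes, because Cdkn1a was singled out by the male value. The male value minus the female value was 2.57 ± 0.47 (95% interval 1.56 to 3.59), given as a description. Between the sexes, Cdkn1a was higher in males by 2.26 ± 0.34 on the log2 scale among Ahr-null livers, and the male minus female value in controls was -0.32 ± 0.33.

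Other features of the libraries are given beside Cdkn1a in males. The share of counts from the 13 mitochondrially encoded genes was 46.7% to 57.3% in control males and 38.9%, 52.7% and 30.4% in Ahr-null males 1, 2 and 3. Markers of Kupffer cells (8 of 8 with counts in every library) summed to 225 to 274 CPM for control and 261 to 396 CPM for Ahr-null males, and those of stellate cells (7 of 7) to 230 to 489 and 276 to 483 CPM. All 3 features overlapped between the male groups. Ahr-null male 2 had a mitochondrial share and both marker sums inside the range of control males, and its Cdkn1a level was 35.6 CPM. Its sums for cholangiocytes and for T and NK cells also lay inside that range. Its sums for hepatocytes (28400 CPM), endothelial cells (154.3), B cells (4.029), neutrophils (3.331) and red blood cells (154.5) lay above it. That for neurons and glia (26.73 CPM) lay below it. The part of these features in the level of Cdkn1a was not tested. Of the exon bases of Cdkn1a, 7.68% overlap AC167363.2 on the opposite strand, and the sources used here do not say whether the counting used strand.

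**Figure D1:**
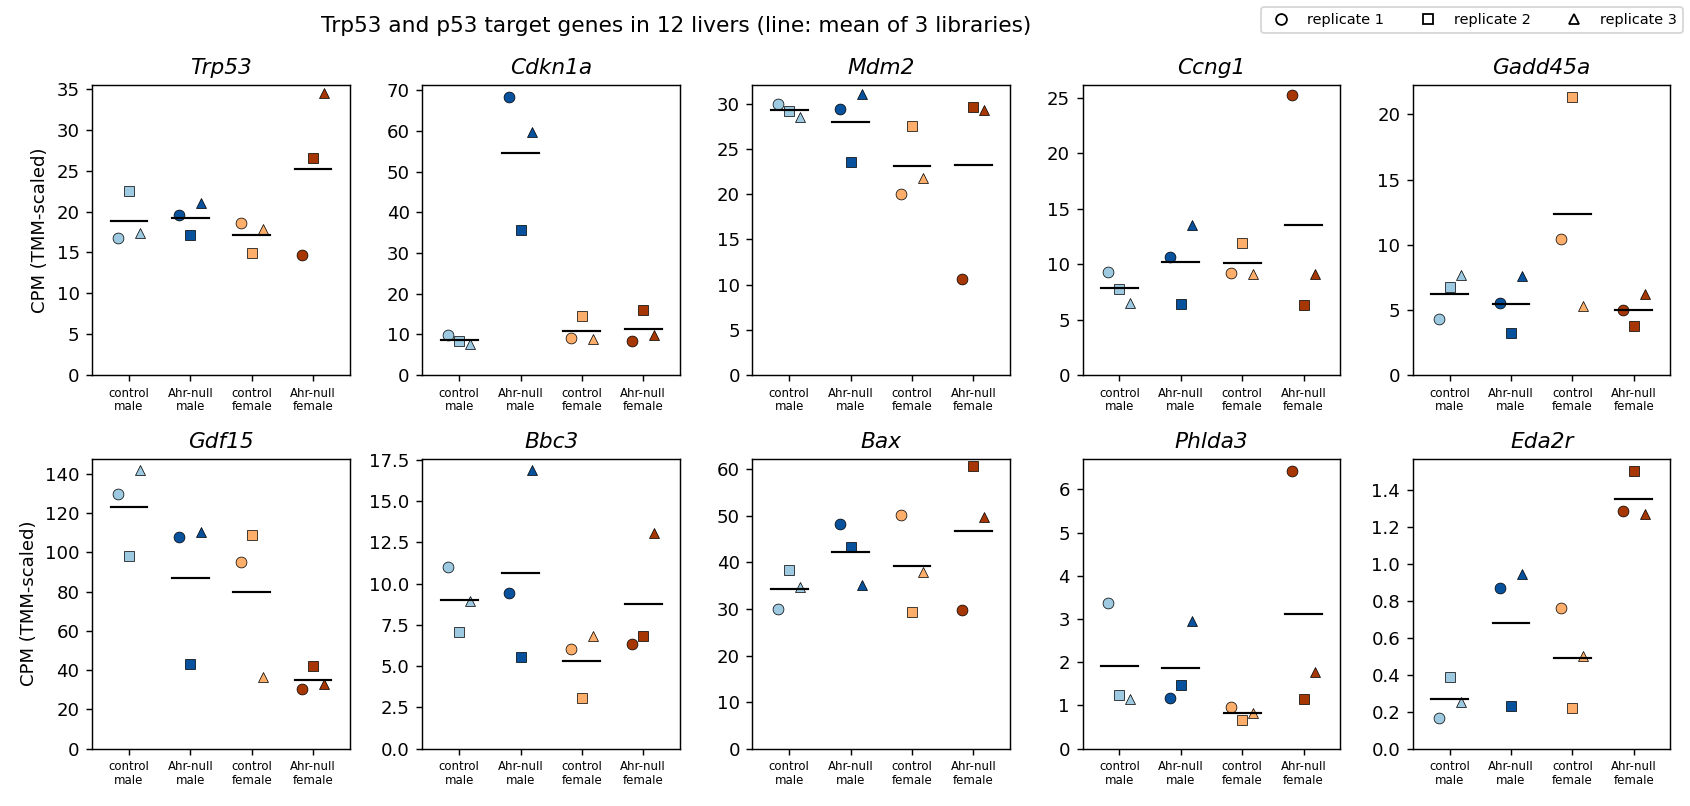
Level of each of the 10 genes (vertical axes, TMM-scaled CPM, starting at 0) in every library of the 4 groups (horizontal axes); symbols mark replicates 1 to 3 and lines the means of 3 libraries. Cdkn1a was at 35.6 to 68.3 CPM in the Ahr-null males and at 7.70 to 16.04 CPM in the other 9 livers, and Eda2r in Ahr-null females lay above all control livers.

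Trp53 and Mdm2, the regulator and its inhibitor, overlapped between the genotypes in each sex. Trp53 (chromosome 11, 69580359 to 69591873) had 16.7, 22.5 and 17.4 CPM in the control males and 19.6, 17.2 and 21.1 CPM in the Ahr-null males. In females it had 18.6, 14.9 and 17.9 CPM in controls and 14.7, 26.6 and 34.5 CPM in Ahr-null livers. The groups overlapped in both sexes, and the highest values were those of Ahr-null females 2 and 3. The log2 fold change was 0.03 ± 0.29 in males and 0.56 ± 0.29 in females (adjusted p = 0.393, edgeR). With single libraries left out, the female value ran from 0.26 without Ahr-null female 3 to 0.85 without Ahr-null female 1. Levels of an mRNA do not report the amount of p53 protein, which is set largely by its breakdown.

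Mdm2 (chromosome 10, 117688875 to 117710758) had 28.5 to 30.03 CPM in the control males and 29.4, 23.6 and 31.1 CPM in the Ahr-null males. In control females it had 20, 27.6 and 21.8 CPM, and in Ahr-null females 10.6, 29.6 and 29.3 CPM. All 3 control males lay above all 3 control females, and the lowest value of all livers was that of Ahr-null female 1, the library with most neural transcripts. Its log2 fold change was -0.06 ± 0.33 in males (95% interval -0.77 to 0.65) and 0.01 ± 0.33 in females (95% interval -0.71 to 0.72; edgeR adjusted p = 0.992).

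Among the genes tied to growth arrest and repair, Ccng1 and Gadd45a overlapped between the male groups. Ccng1 (chromosome 11, 40748552 to 40755311), a cyclin G that feeds back on p53, had 9.25, 7.74 and 6.49 CPM in the control males and 10.6, 6.43 and 13.5 CPM in the Ahr-null males. In females it had 9.17, 11.9 and 9.15 CPM in controls and 25.2, 6.31 and 9.10 CPM in Ahr-null livers. A single library, Ahr-null female 1, stood above all others. The female log2 fold change of 0.42 ± 0.44 (edgeR adjusted p = 0.697) became -0.36 without that library.

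Gadd45a (chromosome 6, 67035096 to 67037457), a stress sensor of DNA damage and growth arrest, had a lower mean in Ahr-null than in control females and did not pass the threshold. Its levels were 10.4, 21.4 and 5.32 CPM in the control females and 4.95, 3.78 and 6.18 CPM in the Ahr-null females. Control female 2 was the highest of all livers, control female 3 lay among the Ahr-null values, and the log2 fold change was -1.31 ± 0.46 (edgeR adjusted p = 0.24). Without control female 2 it was -0.67. In males the levels were 4.29, 6.73 and 7.70 CPM in controls and 5.52, 3.25 and 7.61 CPM in Ahr-null livers, which overlapped (-0.19 ± 0.46). Of its exon bases, 19.1% overlap E230016M11Rik on the opposite strand.

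The genes of cell death gave small differences in males. Bbc3 (chromosome 7, 16308393 to 16318205), which encodes the BH3-only protein PUMA, had 11.02, 7.04 and 8.98 CPM in the control males and 9.46, 5.58 and 16.9 CPM in the Ahr-null males. Its female levels were 6.07, 3.05 and 6.82 CPM in controls and 6.33, 6.85 and 13.1 CPM in Ahr-null livers. Ahr-null male 3 and female 3 were the highest livers, and the groups overlapped in each sex. On the log2 scale Bbc3 differed by 0.25 ± 0.42 in males and 0.72 ± 0.44 in females (edgeR adjusted p = 0.474).

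Bax (chromosome 7, 45461697 to 45466898), a pore former of the mitochondrial outer membrane, had 30.03, 38.4 and 34.8 CPM in the control males and 48.2, 43.2 and 35.2 CPM in the Ahr-null males. In females it had 50.2, 29.3 and 37.9 CPM in controls and 29.7, 60.7 and 49.7 CPM in Ahr-null livers. Its spread was the narrowest of the 10 genes, with the highest liver 2.07 times the lowest. For Bax the log2 fold change was 0.30 ± 0.30 in males and 0.26 ± 0.30 in females (edgeR adjusted p = 0.729). Reads of 12.2% of its exon bases could also belong to Gm45808 on the same strand.

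Phlda3, an inhibitor of the kinase Akt, and Eda2r, a receptor of the tumour necrosis factor receptor family, were higher in all Ahr-null females than in all control females. Phlda3 (chromosome 1, 135766119 to 135769136) had 0.97, 0.65 and 0.83 CPM in the control females and 6.42, 1.14 and 1.77 CPM in the Ahr-null females. The highest was again Ahr-null female 1. The log2 fold change was 1.88 ± 0.69 (edgeR adjusted p = 0.249) and 0.83 without that library. In males it had 3.36, 1.24 and 1.15 CPM in controls and 1.18, 1.47 and 2.96 CPM in Ahr-null livers, and the highest control was male 1, the other library with neural transcripts.

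Eda2r (chromosome X, 97333840 to 97377216) was the least abundant of the 10 genes. It had 11, 2 and 6 counts in control females and 14, 25 and 23 in Ahr-null females, which gave 0.76, 0.22 and 0.50 CPM against 1.284, 1.502 and 1.269 CPM. In males it had 2, 5 and 4 counts (0.17, 0.39 and 0.25 CPM) in controls and 22, 3 and 24 counts (0.87, 0.23 and 0.95 CPM) in Ahr-null livers. Ahr-null male 2 lay within the control males, while the female groups did not overlap. For Eda2r the log2 fold change was 1.40 ± 0.59 in females (edgeR adjusted p = 0.301) and 1.36 ± 0.63 in males. Eda2r reached the filter level of 0.687 CPM before TMM scaling in 3 Ahr-null females and 2 Ahr-null males and in no control, so it was tested only because of the Ahr-null livers.

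Gdf15 (chromosome 8, 70629393 to 70632456), a secreted stress hormone of the transforming growth factor beta family, had lower means in Ahr-null than in control livers of each sex. Its levels were 130, 98.0 and 142 CPM in the control males and 108, 43.2 and 110 CPM in the Ahr-null males. In females they were 95.02, 109 and 36.4 CPM in controls and 30.2, 42.2 and 32.8 CPM in Ahr-null livers. All 3 Ahr-null females were low, as was control female 3, so the female groups overlapped. The log2 fold change was -1.19 ± 0.43 in females (edgeR adjusted p = 0.246) and -0.50 ± 0.43 in males, and the male value was 0.06 when libraries were scaled by their totals alone. Among Ahr-null livers every male lay above every female, by 1.31 ± 0.43 on the log2 scale.

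In the female comparison, 0 of the 10 genes passed an adjusted p of 0.05 in edgeR, where 0.161% of all tested genes did, and DESeq2 also called 0. At an unadjusted p under 0.05 there were 4, Gadd45a and Gdf15 lower and Phlda3 and Eda2r higher in Ahr-null livers, where 14.4% of all tested genes lay under 0.05. The adjusted p of the 10 genes ran from 0.24 to 0.992. Groups without overlap were found for 2 genes, both higher in Ahr-null females, against 9.22% of all tested genes. Eda2r is among these 2 and among the 4. It was tested only because of the Ahr-null livers, and the medians below include it. In males the 1 gene without overlap was Cdkn1a, the gene chosen for it, where 6.55% of all tested genes were higher without overlap and 0.0367% were called. The median log2 fold change of the 10 genes was 0.14 in males and 0.34 in females, against 0.00 and 0.06 for all tested genes. The 2 comparisons have no livers in common and share 1 estimate of the spread.

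**Figure D2:**
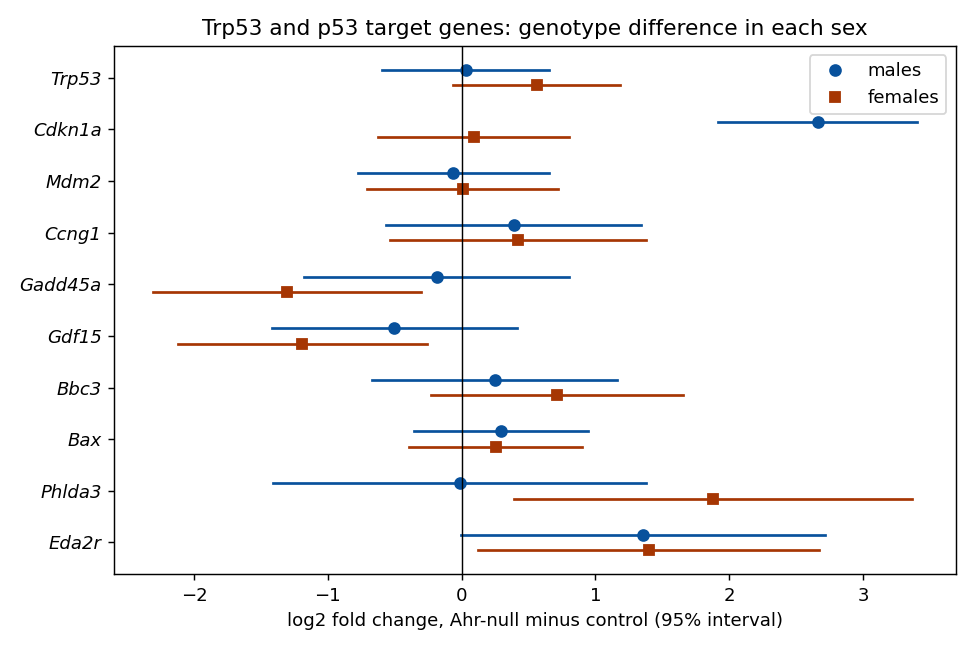
Log2 fold change of Ahr-null minus control livers (horizontal axis) for the 10 genes (vertical axis), with points for males and squares for females and bars for the 95% interval of the fit. The interval of Cdkn1a ran from 1.92 to 3.41 in males, by which it was chosen, and from -0.62 to 0.80 in females. That of Eda2r ran from -0.004 to 2.71 in males. Male intervals are a description and not a test. In females the intervals of Gadd45a, Gdf15, Phlda3 and Eda2r did not include 0, and none of these genes was called.

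Sex within a genotype gave values for the same genes. In controls, Mdm2, Bbc3 and Phlda3 were higher in all males than in all females, against 9.38% of all tested genes. In Ahr-null livers, Cdkn1a and Gdf15 were higher in all males (4.83% of all tested genes) and Eda2r was lower in all males (6.38%). The log2 difference of Eda2r, males minus females, was -0.93 ± 0.55 there.

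Per kilobase of exon, Gdf15 was the most abundant of the 10 genes, with a median over the 12 livers of 52.1 CPM per kb. Bax followed with 24.2 CPM per kb and Mdm2 with 5.68, while Cdkn1a had 2.76 and Eda2r 0.107. In Ahr-null males the level of Cdkn1a was 15.4 ± 4.76 CPM per kb (SD, n = 3), against 2.43 in control males. Over the 12 livers, Cdkn1a had Pearson correlations of log2 CPM between -0.136 and 0.33 with the other 9 genes. Without the 2 libraries with neural transcripts they lay between -0.245 (Gadd45a) and 0.499 (Phlda3). The value for Phlda3 had been 0.014, and that for Ccng1 went from 0.041 to 0.4. Trp53 and Bax were correlated at 0.701, and at 0.624 without the 2 libraries with neural transcripts. The pair of Bbc3 and Phlda3 went from 0.463 to 0.846. These correlations describe 12 livers that share genotype and sex groups.

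Other p53 targets were taken from a list of 43 genes, of which 41 were tested. In males 0 and in females 0 were called by edgeR, with 4 and 7 at an unadjusted p under 0.05, against 5.81% and 14.4% of all tested genes. DESeq2 called 0 in males and 1 in females, Psrc1. Over all genes it called 41 higher and 44 lower in males, and 179 higher and 269 lower in females. In males, 3 were higher and 1 lower without overlap, against 6.55% and 7.34% of all genes, and in females 8 were higher and 1 lower, against 9.22% and 9.86%. The median log2 fold change was 0.14 in males and 0.27 in females (all genes 0.00 and 0.06). The targets with the largest values in males were Ckap2, a spindle protein gene, at 2.77 ± 0.97 (edgeR adjusted p = 0.62), Psrc1, a microtubule-binding protein gene, at 2.41 ± 0.74 (adjusted p = 0.467) and Tnfrsf10b, a death receptor gene, at 2.16 ± 0.72 (adjusted p = 0.563). Their male groups overlapped. These 3 genes reached the filter level in no control liver, so they were tested only because of the Ahr-null livers, and the counts and medians of the list include them.

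Averaged over both sexes, edgeR called 1 of the 41 higher, Psrc1, where 0.528% of all tested genes were called higher. Psrc1 had 0.17, 0.70 and 0.57 CPM in the control males and 3.63, 0.39 and 3.71 CPM in the Ahr-null males. In females it had 0.69, 0.65 and 0.58 CPM in controls and 1.83, 4.27 and 6.01 CPM in Ahr-null livers. Ahr-null male 2 lay within the controls and the other 5 Ahr-null livers lay above them. The averaged log2 fold change was 2.53 ± 0.52 (edgeR adjusted p = 0.0381), for a gene that entered the test through 5 Ahr-null livers alone. The call ended when any one library was left out other than Ahr-null male 2 or Ahr-null female 1, with 2.33 as the lowest value. Ahr-null male 2 was also the lowest of the Ahr-null males for 8 of the 10 genes described before, all but Bax and Phlda3.

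**Figure D3:**
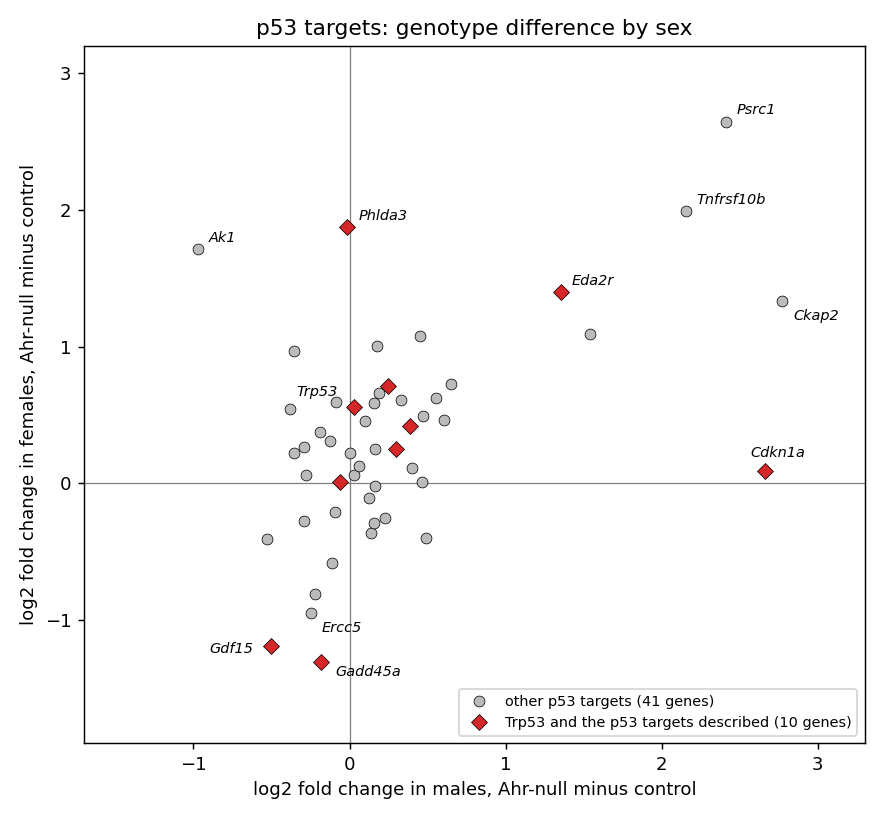
Log2 fold change of Ahr-null minus control in males (horizontal axis) against that in females (vertical axis), with red diamonds for Trp53 and the 9 targets described and grey circles for the 41 other p53 targets. Cdkn1a lies at 2.66 in males and 0.09 in females, while Psrc1 and Tnfrsf10b lie above 1.9 on both axes.

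Further lists covered regulators of p53, inhibitors of cyclin-dependent kinases, cyclins and their kinases, proliferation genes, the BCL2 family with caspases, the integrated stress response and relatives of the 10 genes. Of their 81 tested genes that are not among the p53 targets, edgeR called 0 in males, 0 in females and 3 averaged over both sexes, all higher. At an unadjusted p under 0.05 there were 11, 20 and 28, where 5.81%, 14.4% and 15.3% of all tested genes lay. DESeq2 called 0, 9 and 9 of the list genes. Over all genes it called 41 higher and 44 lower in males, 179 and 269 in females, and 271 and 319 averaged. By edgeR, 5, 22 and 144 of all tested genes were called, which is 1.06% in the averaged comparison. The 81 genes include Phlda2 and Aurkb, which reached the filter level in no control liver. Of 17 regulators of p53, edgeR called none averaged over both sexes, with 4 at an unadjusted p under 0.05 and a median of -0.10, while DESeq2 called 1 lower, Hipk2. Hipk2, a kinase that phosphorylates p53, had an averaged value of -0.80 ± 0.25 (edgeR adjusted p = 0.155), and Crebbp, an acetyltransferase, -0.71 ± 0.26 (adjusted p = 0.212). Of the 19 tested genes of the BCL2 family and caspases, edgeR and DESeq2 called none, with 4 at an unadjusted p under 0.05 in edgeR. Bid, a BH3-only protein gene, had 4.96 to 6.35 CPM in the control males and 2.60 to 3.33 CPM in the Ahr-null males (edgeR adjusted p = 0.425). In males, 7.34% of all tested genes were likewise lower without overlap. The female groups of Bid overlapped, with 2.90 to 5.32 CPM in controls and 3.53 to 4.22 CPM in Ahr-null livers (-0.06 ± 0.28; edgeR adjusted p = 0.948). Apaf1, of the apoptosome, had an averaged value of 0.59 ± 0.22 (edgeR adjusted p = 0.227).

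Other inhibitors of cyclin-dependent kinases were measured beside Cdkn1a. Of the 4 tested, edgeR and DESeq2 called none in the averaged comparison, with 1 at an unadjusted p under 0.05 in edgeR. Cdkn1b, which encodes p27, had 14.5 to 23.0 CPM in the control males and 9.76 to 15.5 CPM in the Ahr-null males (-0.43 ± 0.32; edgeR adjusted p = 1). Cdkn2c had a female value of 1.83 ± 0.62 (adjusted p = 0.222) and a male value of 0.22 ± 0.60 (adjusted p = 1).

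Among the cyclins and kinases, Ccnd1, the D-type cyclin whose kinase complexes p21 can bind, was the 1 of 12 genes called by edgeR, in the averaged comparison. DESeq2 also called 1 averaged, Ccnd1, and in females 2, Ccnd1 and Ccne1, both higher. Over all genes in females it called 179 higher and 269 lower. Ccne1 had a female value of 2.07 ± 0.47 (edgeR adjusted p = 0.11) and a male value of -0.28 ± 0.43. Ccnd1 had 6.56, 1.78 and 3.18 CPM in the control males and 12.9, 2.71 and 13.6 CPM in the Ahr-null males. In females it had 3.08 to 5.23 CPM in controls and 30.6, 14.7 and 18.3 CPM in Ahr-null livers. The female groups were apart, and Ahr-null male 2 lay within the control males. The averaged log2 fold change was 1.87 ± 0.40 (edgeR adjusted p = 0.0475), and 9 of the 12 libraries ended the call when left out, the exceptions being control male 1, Ahr-null male 2 and Ahr-null female 1.

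None of the 18 proliferation genes was called by edgeR in the averaged comparison. An unadjusted p under 0.05 was found for 12 of them, against 15.3% of all tested genes. DESeq2 called 5, with Mki67, Cdc20, Mcm2 and Mcm5 higher and Tk1 lower. Over all genes, DESeq2 called 271 higher and 319 lower. Values above 0 were found for 17 of the 18, with a median of 0.89 against 0.04 for all genes, and Tk1, the thymidine kinase gene, was the exception. Aurkb reached the filter level in no control liver, so it was tested only because of the Ahr-null livers. The edgeR counts and the median include it. Cdc20, an activator of the anaphase-promoting complex, had 0.08, 0.15 and 1.21 CPM in the control males and 3.63, 0.46 and 9.27 CPM in the Ahr-null males (averaged 2.93 ± 0.68; edgeR adjusted p = 0.0618). Mcm2, of the replicative helicase, had 1.24 to 1.74 CPM in the control females and 4.27 to 10.4 CPM in the Ahr-null females (averaged 1.26 ± 0.31; edgeR adjusted p = 0.0761). Its male groups overlapped, with 1.62 to 4.07 CPM in controls and 2.87 to 5.48 CPM in Ahr-null livers (0.29 ± 0.42), against 2.24 ± 0.45 in females. The median of the 18 genes was 0.33 in males and 0.94 in females. In females the markers of stellate cells (7 of 7) summed to 296 to 443 CPM in controls and 398 to 1080 CPM in Ahr-null livers. These sums overlapped, as did those of Kupffer cells, endothelial cells, cholangiocytes, neutrophils, and neurons and glia. Other sums were higher in all Ahr-null than in all control females. Hepatocyte markers had 25700 to 72000 against 19700 to 23100 CPM, and red blood cell markers 98.5 to 143 against 29.1 to 93.6 CPM. T and NK cell markers had 6.18 to 11.7 against 2 to 2.94 CPM, and B cell markers 3.85 to 7.87 against 2.33 to 2.72 CPM. The part of cell types in the values of the proliferation genes was not tested.

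The other genes called by edgeR averaged over both sexes were Phlda2, a relative of Phlda3, and Asns, the asparagine synthetase of the integrated stress response. In females, DESeq2 called these 2 and also Trib3 higher and Gadd45g lower, where it called 179 higher and 269 lower of all genes. By edgeR, Trib3 had 1.46 ± 0.37 in females (adjusted p = 0.138) and -0.52 ± 0.35 in males. Gadd45g had -3.24 ± 0.76 in females (edgeR adjusted p = 0.12) and 0.96 ± 0.70 in males. Phlda2 had 0.46 to 0.51 CPM in the control males and 0.83 to 1.18 CPM in the Ahr-null males. In females it had 2 counts in all control libraries together and 59 in the Ahr-null libraries, a ratio per scaled library of 23.1 (exact 95% interval 6.11 to 195, counting error only). Phlda2 reached the filter level in 5 Ahr-null livers and in no control, so it too was tested only because of the Ahr-null livers. Its averaged log2 fold change was 2.63 ± 0.52 (edgeR adjusted p = 0.0303), a value that depends on the prior count because the control females were near 0, and 11 of 12 libraries ended the call when left out, Ahr-null female 1 being the exception. Asns was counted 3 times in all control females together and 91 times in the Ahr-null females, a ratio of 23.7 (exact 95% interval 7.86 to 117, counting error only). Its averaged value of 3.49 ± 0.70 (edgeR adjusted p = 0.036) likewise depends on the prior count, and ran from 2.90 without Ahr-null female 1 to 5.23 without control female 1. Leaving out 1 library ended that call for 10 of the 12, the exceptions being Ahr-null females 1 and 2.

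The genes whose levels were most like those of Cdkn1a were found by Pearson correlation of log2 CPM over the 12 livers, among 10887 genes. Of the 8 highest, 7 are described, namely Ypel2 (0.941), Chka (0.908), Dtx4 (0.858), Fam222a (0.838), Ppard (0.837), Diaph1 (0.831) and Mthfd2 (0.828). No listed p53 target was among them, but 8 of 10887 genes are too few to draw anything from this. All 7 were higher in every Ahr-null male than in every control male, which follows from the choice by likeness. Ypel2 had 8.17 ± 0.80 CPM in the control males and 17.2 ± 3.80 CPM in the Ahr-null males (SD, n = 3), against 7.65 ± 0.51 and 8.62 ± 0.51 CPM in control and Ahr-null females. Chka, the choline kinase alpha gene, had 116 ± 18.1 and 424 ± 121 CPM in males and 101 ± 17.4 and 143 ± 81.3 CPM in females. Ppard, which encodes a lipid-sensing nuclear receptor, had 16 ± 1.12 and 38.3 ± 4.41 CPM in males and 15.9 ± 2.83 and 13.9 ± 7.62 CPM in females. Ypel2, Chka and Ppard stayed among the 8 without the 2 libraries with neural transcripts. In Ahr-null female 1, Chka (49.7 CPM) and Ppard (5.32 CPM) were below all control females.

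**Figure D4:**
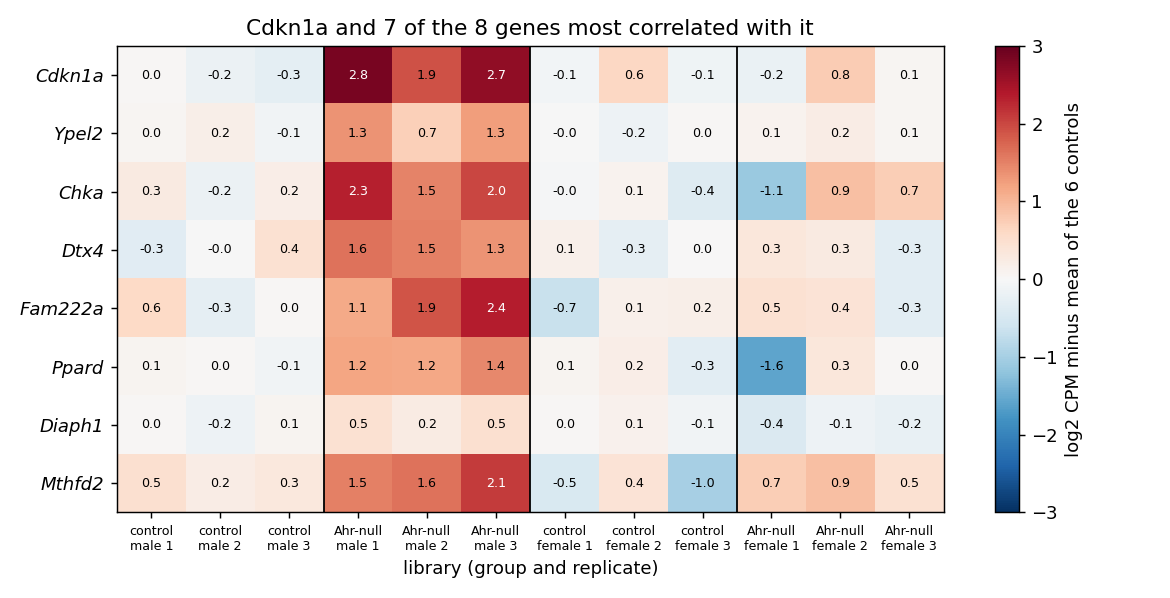
Log2 CPM of Cdkn1a and 7 of the 8 genes most correlated with it (rows) in each of the 12 libraries (columns, grouped by genotype and sex), relative to the gene's mean over the 6 controls; red is higher and blue lower. All 8 rows are red in the 3 Ahr-null males, where Chka reached 542 CPM, and Chka and Ppard are blue in Ahr-null female 1.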

How the data were processed

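The authors deposited a table of raw whole-number counts per gene and a table of variance-stabilised values on a log2-like scale, made with DESeq2 per the file headers. The submitters' processing notes name STAR 2.7.8 with GRCm38, besides FastQC 0.11.8 and Trim Galore 0.6.5, and DESeq2 1.28.1. Average RIN was 7.0 per the labels' protocols. Neither the read counter nor its strand setting and annotation release is given in the sources used here.

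The counts were fitted with edgeR 4.0.16 in R 4.3.3 (filterByExpr by the 4 groups, 0.687 CPM in at least 3 libraries; TMM; robust quasi-likelihood; 1 mean per group over 12 libraries, 8 residual degrees of freedom). Of 27304 genes, 13641 passed, among them all 10 described. P-values are two-sided and Benjamini-Hochberg adjusted over all tested genes, and calls use 0.05. CPM use TMM-scaled totals, where 1 count was worth at most 0.109 CPM. Log2 fold changes compare Ahr-null with control, or males with females. Positions come from GENCODE M21 (27275 IDs matched) and promoters from RefSeq (GRCm38.p6; 14 windows for the 10 genes). Replicate numbers follow accession order. Replicate pairs differed beyond sampling noise (chi-square per degree of freedom 18 or more), so none was merged.

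The genes, lists and the choice of comparisons were made with earlier results of these data known. The text names the 10 genes; from each list the called genes or otherwise the 2 with the smallest p in the averaged comparison; the 8 genes most correlated with Cdkn1a (mean log2 CPM at least 1, prior count 2, established symbol), of which 1 is not reported here; and Ahr and Cyp1a2. Ckap2, Tnfrsf10b, Tk1, Mki67, Mcm5, Aurkb, Ccne1, Trib3, Gadd45g and, in a plot, Ercc5 and Ak1 were named after their values were seen. Alternatives were other scalings, filters and thresholds, DESeq2 1.42.0, limma 3.58.1 (voom, and on the authors' deposited log2-like values), fits of 1 sex, and leaving out libraries. The fit was tested on simulated counts.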

Additional observations from a re-analysis of the deposited data

How the results depend on the processing

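No paired analysis was possible because the replicate numbers follow accession order and pair no livers. In females, 0 of the 10 genes were called under all 25 alternatives. Cdkn1a in males stayed between 2.45 and 3.22 on the log2 scale, with 3.22 under scaling by library size alone and 2.49 to 2.89 when single libraries were left out. That scaling moved the all-gene median log2 fold change to 0.47 in males, 0.58 in females and 0.53 averaged. Female values that turned sign were small ones. Mdm2 was -0.14 with limma-voom, -0.11 with limma on the deposited values and -0.20 to 0.37 when single libraries were left out. Ccng1 was -0.36 without the 2 libraries with neural transcripts and -0.36 to 0.75 when single libraries were left out, and Cdkn1a was -0.25 to 0.36. Of the other p53 targets in females, 1 was called with DESeq2, 2 without the 2 libraries with neural transcripts and 0 to 1 with single libraries left out. Averaged over sexes, 0 were called at 0.01, with a stricter filter, with voom and with limma on the deposited values. At 0.1 it was 2, with library size alone 7, with DESeq2 2, without the 2 libraries 3, and 0 to 3 with single libraries left out. For the related lists in females, 2 were called at 0.1, 6 with library size alone, 9 with DESeq2, 5 without the 2 libraries and 0 to 4 with single libraries left out, 4 being without Ahr-null female 1. Averaged, 0 were called at 0.01 and with voom, 1 without a filter and 1 with limma on the deposited values. There were 6 at 0.1, 19 with library size alone, 9 with DESeq2, 7 without the 2 libraries and 0 to 9 with single libraries left out. Of the 8 genes most like Cdkn1a, 3 were kept without the 2 libraries, 2 over the 6 male livers and 2 with Spearman correlation. The cause of these shifts was not tested. Over all genes, 0 to 85 were called in males, 3 to 448 in females and 6 to 1053 averaged. The main fit called 5, 22 and 144. Female calls over all genes were 95 higher and 21 lower with library size alone and 179 and 269 with DESeq2. They were 105 and 130 without the 2 libraries, and 58 and 95 without Ahr-null female 1. In the same order, the averaged calls were 986 and 67, 271 and 319, 207 and 225, and 307 and 356. With 2 to 25 counts per library, Eda2r was limited by depth.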
